A study of Mus musculus with 6 samples.

Results

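Megakaryocytes are the bone marrow cells that shed platelets, and a small set of surface and granule proteins marks them. For these proteins, 10 genes were followed in cultured mouse cells with and without metformin. The list holds Itga2b and Itgb3, whose products pair as the fibrinogen receptor alphaIIb-beta3 (CD41 and CD61), the receptor complex for von Willebrand factor (Gp1ba, Gp1bb, Gp9 and Gp5), the collagen receptor gene Gp6, the chemokine genes Pf4 and Ppbp, and Vwf, the gene for von Willebrand factor itself. The members were chosen by the high level of Itga2b in all 6 libraries, and the other 9 genes were added from their known role in platelets, with earlier results of these data known. The level of Itga2b is therefore a description and not a finding. All 10 were found among the 55401 Ensembl genes of the deposited table.

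RNA-seq had been run on 3 control libraries and 3 libraries of cells treated with 1 μM metformin for 24 h. The labels give every library as female germline stem cells (FGSCs) of strain C57BL/6, past passage 20, and the control as untreated. All cultures, control and treated, were grown on STO feeder cells (a mouse fibroblast line that had been stopped from dividing) with serum, LIF, EGF, bFGF and GDNF. The study describes the cells as an established line, so libraries of a group are cultures of that line, and the labels do not say whether they were separate cultures. P-values then measure the spread between these libraries, which may be technical.

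Platelets form when a megakaryocyte, driven by the transcription factors GATA1, FLI1, RUNX1 and NF-E2, fills its cytoplasm with granules and extends long processes that break up in the blood. Integrin alphaIIb appears early in this lineage and is also carried by early blood progenitors and by mast cell precursors. The von Willebrand factor receptor and the collagen receptor come later, as the cell matures. Vwf and the chemokine genes are not placed in this order here. Thus the list spans early and late genes of the same lineage.

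Values are FPKM, that is, fragments scaled to the length of the gene and to the mapped fragments of the library. Levels can thus be set side by side between genes, within the limit that the gene lengths used are not given. The libraries held an estimated 13400000 to 14000000 mapped fragments, and 3 fragments on 1 kb of exon were worth 0.214 to 0.224 FPKM. The value of 3 fragments served as the floor for ordering low members, and not for the counts of genes above 0. Intervals and limits of this kind cover counting error only. The germ cell label was checked against 8 germ cell genes, of which 0 reached a mean of 1 FPKM and 5 were listed at 0 in every library (Dazl, Dppa3, Pou5f1, Nanos3 and Tfap2c). None of 8 fibroblast genes and none of 6 lymphocyte genes reached 1 FPKM. Of 12 mast cell and basophil genes, Kit, Cpa3 and Il1rl1 did, with means of 118, 352 and 32.8 FPKM, while Fcer1a, Tpsb2, Tpsab1, Mcpt4 and Prss34 were listed at 0. Among 8 blood progenitor genes, Cd48, Spi1, Ptprc and Slamf1 reached 1 FPKM, as did Adgre1 and Cd68 among 8 macrophage and neutrophil genes. The germ cell genes in these libraries thus went against the label, and the cells are called FGSCs here only as the name the labels give. By contrast, the paper reports RT-PCR products of Pou5f1, Ddx4, Dppa3, Ifitm3, Dazl and Prdm1 in its cultured line, and staining for the MVH (Ddx4) protein. In bulk RNA a gene expressed in few cells cannot be told apart from low expression in all.

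The 10 genes fell into 3 levels. Itga2b, Itgb3 and Pf4 were above 10 FPKM in all 6 libraries, Ppbp and Gp1ba lay between 0.51 and 3.01 FPKM, and Gp5, Gp9, Vwf, Gp6 and Gp1bb stayed at or below 0.13 FPKM. The ranges of neighbours in the order of levels did not overlap from Itga2b down to Gp5. Gp5, Gp9 and Vwf overlapped in range, and Gp6 and Gp1bb were both listed at 0 in every library. No order is given among these 5 genes, since at least 1 library of each lay under the value of 3 fragments.

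**Figure D1:**
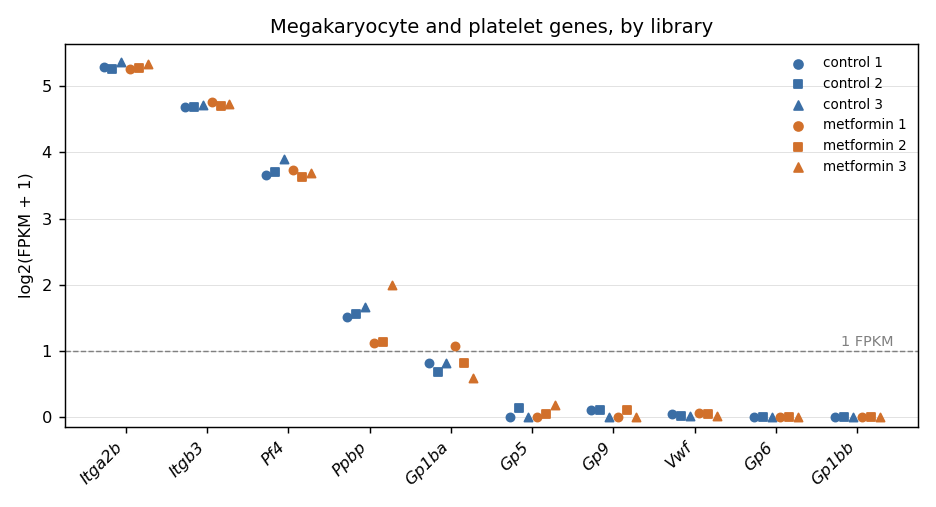
Level of each of the 10 genes on the scale log2(FPKM + 1), one symbol for each library (blue, control; orange, metformin; the shape gives the replicate number), with a dashed line at 1 FPKM. Itga2b, Itgb3 and Pf4 form the upper level with little spread, Ppbp lies above the line and Gp1ba around it, with 1 library above, and the other 5 genes sit at or near 0.

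Promoters are shown for 4 of the genes, to set the sequence next to the pair with the highest levels for which a promoter was given (Itga2b and Pf4) and the pair listed at 0 (Gp6 and Gp1bb). The sequences are RefSeq's on build GRCm38.p6, from 250 bases before to 50 bases after the gene's start, written 5′ to 3′ on the gene's own strand. A window was given for 8 of the 10 genes. Capitals mark the letters GATAA, the core that GATA factors bind, GGAAG, a core of ETS factors such as FLI1, or TGTGGT, the core of RUNX factors, searched on both strands.
Itga2b, chr11:102469834-102470133, minus strand: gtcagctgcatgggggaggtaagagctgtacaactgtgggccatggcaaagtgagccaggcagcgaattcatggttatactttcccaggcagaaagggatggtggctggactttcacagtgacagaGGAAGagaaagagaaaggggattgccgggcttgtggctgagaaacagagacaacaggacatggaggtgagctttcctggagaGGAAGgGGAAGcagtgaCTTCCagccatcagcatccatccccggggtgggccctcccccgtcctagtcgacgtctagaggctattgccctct
Pf4, chr5:90772185-90772484, plus strand: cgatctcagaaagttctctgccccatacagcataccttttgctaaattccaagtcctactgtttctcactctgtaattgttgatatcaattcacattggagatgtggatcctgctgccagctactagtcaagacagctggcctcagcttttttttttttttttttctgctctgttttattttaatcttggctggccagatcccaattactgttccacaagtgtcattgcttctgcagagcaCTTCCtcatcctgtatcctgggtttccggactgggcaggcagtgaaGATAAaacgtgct
Gp6, chr7:4397695-4397994, minus strand: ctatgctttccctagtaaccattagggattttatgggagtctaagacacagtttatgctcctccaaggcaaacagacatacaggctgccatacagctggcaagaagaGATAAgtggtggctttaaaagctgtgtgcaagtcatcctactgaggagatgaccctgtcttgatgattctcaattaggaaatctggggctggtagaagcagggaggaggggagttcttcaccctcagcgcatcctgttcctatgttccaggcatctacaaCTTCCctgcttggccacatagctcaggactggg
Gp1bb, chr16:18622354-18622653, minus strand: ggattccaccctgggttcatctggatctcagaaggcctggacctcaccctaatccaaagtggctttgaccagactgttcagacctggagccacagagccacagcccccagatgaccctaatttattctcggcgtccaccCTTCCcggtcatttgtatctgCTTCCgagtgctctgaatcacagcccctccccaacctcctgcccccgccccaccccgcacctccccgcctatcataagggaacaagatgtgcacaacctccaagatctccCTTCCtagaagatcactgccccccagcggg
The deposited span of Itga2b, from 102453297 to 102470122 of chromosome 11, runs through most of the window shown for it. GGAAG was present in all 8 member windows, GATAA in 5 of them and TGTGGT in 1, that of Gp9. Of 32851 windows of the same length in the table, 71.4% held GGAAG, 25.4% held GATAA and 16.8% held TGTGGT. The Itga2b window held GGAAG 4 times and GATAA 0 times. The windows of Pf4 and Gp6 each held both cores once, although the genes differed in level, and Gp1bb held GGAAG 3 times without GATAA. These matches describe the letters in a short window and are not binding sites.

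Itga2b, the gene for integrin alphaIIb, lies on the minus strand of chromosome 11. Its level was 38.2, 37.2 and 40.4 FPKM in control replicates 1 to 3 and 37.5, 37.8 and 39.3 FPKM with metformin. The values of the groups overlapped, and control replicate 3 was the highest library. The mean over 6 libraries, 38.4 ± 1.23 FPKM (SD, n = 6), lay at percentile 85.4 of the 10661 genes that averaged 1 FPKM or more. Its SD on the log2 scale, 0.045, was near the median of 0.047 for 1340 genes within 1.5 times its level. A gene inside its span on the same strand, AL596258.1, had a mean of 0.145 FPKM.

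Itgb3, the gene for the beta3 subunit that alphaIIb needs to reach the cell surface, lies on the plus strand of chromosome 11 from 104608000 to 104670476. It stood at 24.8, 24.8 and 25.3 FPKM in the control libraries and at 26.1, 24.9 and 25.5 FPKM with metformin. The groups overlapped, since metformin replicate 2 lay within the control range and the other metformin libraries above it. Its mean of 25.2 ± 0.523 FPKM (SD, n = 6) had a log2 SD of 0.03, at percentile 9.73 of 1860 genes of like level. The level of Itga2b was 1.52 ± 0.055 times that of Itgb3 within a library (SD, n = 6), with a range of 1.43 to 1.60. Transcripts of both partners of the fibrinogen receptor were thus present in every library, with that of the alpha subunit higher in FPKM. The gene lengths behind these FPKM are not given, so the ratio of the transcripts themselves is uncertain.

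Among the integrins, Itga2b had the highest mean of the 18 alpha subunit genes. It was not separable from Itgal, the gene for the leukocyte integrin LFA-1, at 37.9 ± 1.11 FPKM (SD, n = 6), since their ranges overlapped and Itga2b was higher in 4 of 6 libraries. Itga2b made up 32.5% ± 0.73 (SD, n = 6) of the summed FPKM of all alpha subunits. Itga6, Itga4, Itgav and Itga5 followed at 17.8, 10.3, 8.54 and 3.97 FPKM, and the means of the other 12 alpha genes were below 1 FPKM. Itgav is the other known partner of beta3, and Itga2b exceeded it in every library. Itga2, which encodes the collagen-binding alpha2 subunit of platelets, was at 0.01 FPKM or less. Of the 8 beta subunit genes, Itgb3 ranked 4th, after Itgb1 at 68.4, Itgb7 at 42.3 and Itgb2 at 28.6 FPKM. The range of Itgb3 overlapped that of Itgb2, from 25.5 to 30.1 FPKM, although Itgb2 was higher in 6 of 6 libraries. The remaining 4 beta genes were at or below 0.57 FPKM in each library.

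**Figure D2:**
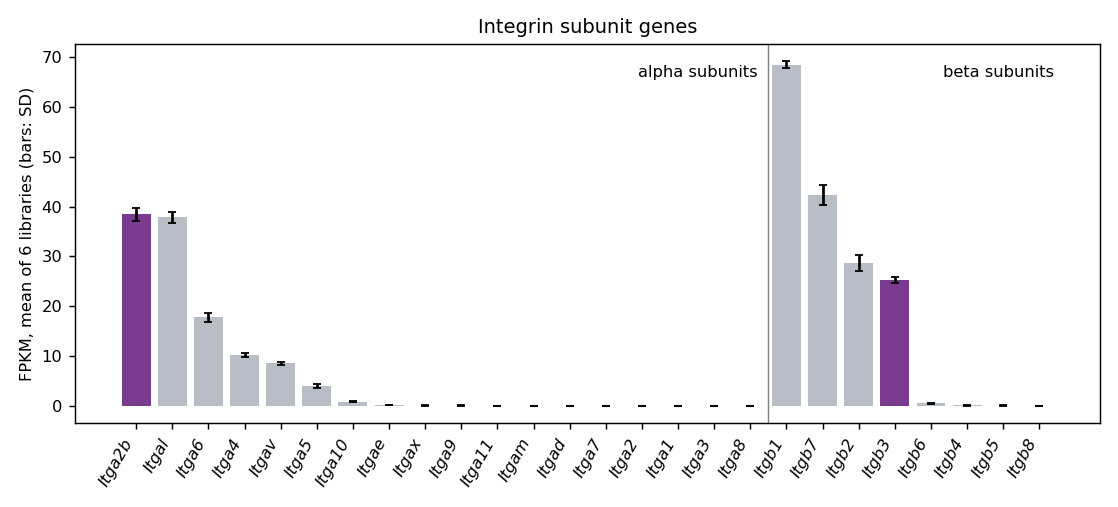
Mean FPKM over the 6 libraries of 18 alpha and 8 beta integrin subunit genes, ordered by level within each class, with the SD over libraries as error bars and Itga2b and Itgb3 in purple. Itga2b and Itgal share the top of the alpha subunits, and Itgb3 is the lowest of the 4 beta subunits above 1 FPKM.

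Pf4 and Ppbp encode the chemokines platelet factor 4 (CXCL4) and pro-platelet basic protein (CXCL7), which platelets store in alpha granules, and the genes are neighbours on the plus strand of chromosome 5, at 90772435 to 90773383 and 90768518 to 90770063. Pf4 had 11.69, 12.06 and 13.99 FPKM in the control libraries and 12.35, 11.32 and 11.96 FPKM with metformin. The groups overlapped, and control replicate 3 was again the highest. Ppbp had 1.86, 1.94 and 2.18 FPKM in the control libraries and 1.18, 1.19 and 3.01 FPKM with metformin. Here the metformin group held both the lowest and the highest libraries, and the control values lay between them. Pf4 exceeded Ppbp in 6 of 6 libraries, by 6.22 to 6.42 times in the control libraries and by 10.5, 9.51 and 3.97 times in metformin replicates 1 to 3.

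These chemokine genes are short, and few fragments stand behind their values. With the exon lengths of GENCODE M1 (586 bp for Pf4 and 1080 bp for Ppbp), the depth gives about 92 to 115 fragments of Pf4 in a library. For Ppbp it gives about 27, 29 and 33 fragments in the control libraries and about 18, 18 and 45 with metformin. The estimates for Pf4 lay up to 0.47 from a whole number. The length behind its deposited values thus probably differs from 586 bp, and its fragments are approximate. The exact 95% Poisson interval of metformin replicate 3 for Ppbp, 32.8 to 60.2 fragments, did not overlap the interval of 10.7 to 28.4 that the other metformin libraries shared, while it did overlap those of the control libraries. Its log2 SD over 6 libraries, 0.34, was at percentile 90.8 of 1596 genes of like level, whose median was 0.11. Pf4 was at percentile 84.2 among genes of its own level, with a log2 SD of 0.10. So Itgb3 was among the less variable genes of its level, while Ppbp was among the more variable. Genes of like level were matched on FPKM and not on fragments. The part of gene length and counting error in these percentiles was not tested.

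**Figure D3:**
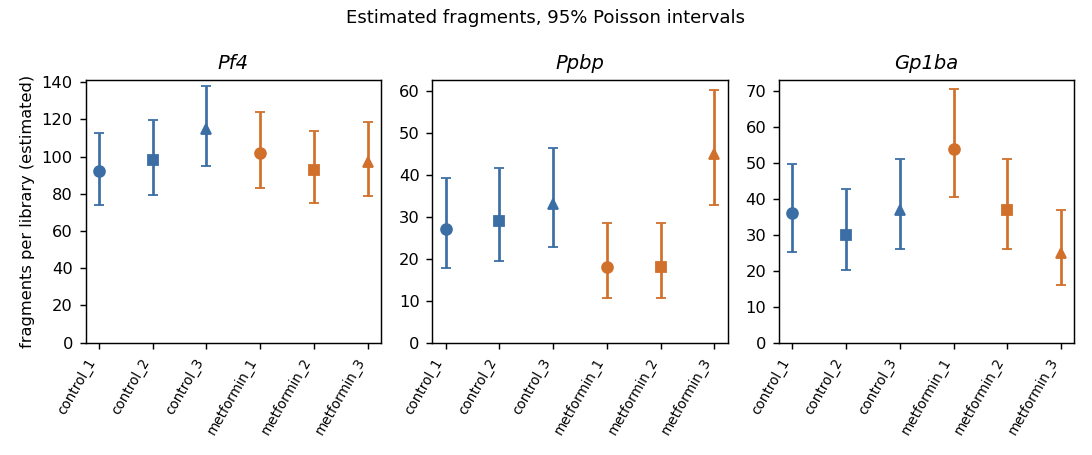
Fragments per library estimated from FPKM, exon length and depth for Pf4, Ppbp and Gp1ba (blue, control; orange, metformin), with exact 95% Poisson intervals for counting error as bars and a separate linear axis from 0 for each gene. The intervals of Pf4 overlap in all libraries, whereas for Ppbp metformin replicate 3, at about 45 fragments, lies above the intervals of the other metformin libraries. Fragments of Gp1ba are overestimates, since the exon length used exceeds its deposited span.

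GPIb-IX-V is the receptor with which platelets catch von Willebrand factor under flow, and GPIbalpha, GPIbbeta and GPIX must all be made for it to reach the surface. Gp1ba, on the plus strand of chromosome 11 from 70639122 to 70642036, had 0.77, 0.61 and 0.76 FPKM in the control libraries and 1.10, 0.76 and 0.51 FPKM with metformin. The metformin group spanned the whole control range. About 25 to 54 fragments lay behind each value by the M1 exon length of 3508 bp. That length exceeds the deposited span of Gp1ba, so these fragments are overestimates. Itga2b was 34.1 to 77.1 times as high in FPKM. Gp9, on chromosome 6, was listed at 0.08 FPKM in control replicates 1 and 2 and metformin replicate 2, which corresponds to about 1 fragment each, and at 0 in the others. Gp5, on chromosome 16, was at 0.10 FPKM in control replicate 2 and at 0.03 and 0.13 FPKM in metformin replicates 2 and 3, with 0 in the rest and about 8 fragments in all 6 libraries. Gp1bb was listed at 0 in every library, where 3 fragments would have been worth 0.115 FPKM. Most of its span, from 18620317 to 18622403 of chromosome 16, is shared on the same strand with Sept5 (mean 0.327 FPKM) and an unnamed gene (0.053 FPKM), so that its value is uncertain. Gp1ba was therefore the only gene of the complex with more than 4 fragments in any library.

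Gp6 encodes the collagen receptor GPVI, which signals through the Fc receptor gamma chain. It was listed at 0 in all 6 libraries, and 3 fragments would have been worth 0.188 FPKM. Fcer1g, the gene for the gamma chain, is shared with the IgE receptor of mast cells and had 21.9 ± 0.652 FPKM (SD, n = 6). Vwf, on chromosome 6 from 125546774 to 125686679, encodes the adhesive protein that platelets and endothelial cells both make. It had 0.03, 0.01 and 0.01 FPKM in the control libraries and 0.04, 0.03 and 0.01 FPKM with metformin, all close to the rounding of the table at 2 decimals. Of 8 endothelial genes, Egfl7 alone reached 1 FPKM, with a mean of 6.51, and Cdh5, Emcn and Cldn5 were listed at 0. Of the 6 genes for the von Willebrand factor receptor, the collagen receptor and von Willebrand factor, Gp5, Gp9, Gp6 and Vwf were thus at or near 0. Gp1bb was listed at 0 with an uncertain value, given the genes that share its span. Gp1ba was at 0.51 to 1.10 FPKM, and the high members were the fibrinogen receptor genes and Pf4.

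Metformin was compared with control on log2(FPKM + 1) with limma over the 10661 genes that averaged 1 FPKM or more, and 4 members reached that mean. None of the 4 passed an adjusted p of 0.05, against 3 genes or 0.0281% of all tested genes, and 0 of the 4 had an unadjusted p under 0.05, against 1156 of all tested genes. In 0 of the 4 the groups were without overlap, against 17.0% of all tested genes. For Itga2b the log2 fold change (metformin minus control) was -0.01, with a standard error of 0.04 and a limma adjusted p of 0.920, and a 95% interval from 0.933 to 1.05 times the control. Intervals are ratios of FPKM + 1, which understate the change of a low gene. For Itgb3 it was 0.03 ± 0.03 (SE; limma adjusted p = 0.731), with an interval of 0.975 to 1.07 times. For Pf4 it was -0.07 ± 0.07 (SE; limma adjusted p = 0.726), between 0.852 and 1.06 times the control.

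Ppbp had the widest interval of the 4. Its log2 fold change was -0.16 ± 0.23 (SE; limma adjusted p = 0.837), with a 95% interval of the ratio of FPKM + 1 from 0.616 to 1.30. With a pseudocount of 0.1 in place of 1 it was -0.28 ± 0.33 (SE; limma adjusted p = 0.804). Without metformin replicate 3, the value was -0.45 (adjusted p = 0.404 in limma), and without metformin replicate 1 it was -0.013. An exact two-sided permutation test of 3 libraries against 3 gave p = 0.6 for Ppbp and p = 0.7 for Itga2b, where the smallest possible p is 0.1. The interval of Ppbp was thus wider than those of the fibrinogen receptor genes, and a change within it cannot be told apart from none. The interval is for a single gene, without adjustment over the tested genes, so it is not a limit of detection.

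**Figure D4:**
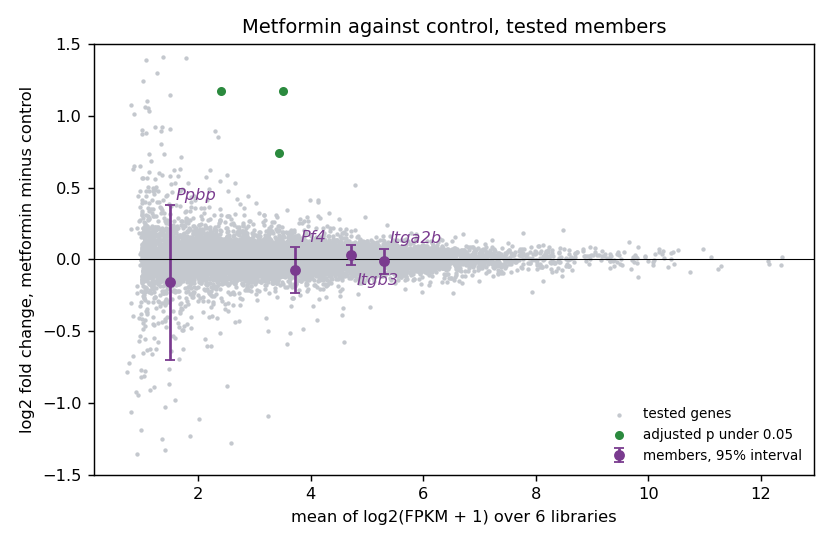
Log2 fold change (metformin minus control) against the mean of log2(FPKM + 1) for the 10661 tested genes (grey), the 3 genes with an adjusted p under 0.05 (green) and the 4 tested members (purple, bars for 95% intervals). The intervals of all 4 members include 0, and that of Ppbp is the widest.

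Genes that act with the members were read from lists of the same lineage. Of 16 transcription factors of megakaryocytes, 15 reached a mean of 1 FPKM and 12 a mean of 10. Gata2, Lyl1, Ldb1 and Fli1 were the highest, with means of 267, 77.7, 39.3 and 37.9 FPKM, whereas Gata1, the factor that megakaryocytes and red cells need to mature, had 3.59 FPKM. Gata2 was 255 to 265 FPKM in the control libraries and 273 to 279 with metformin. Its log2 fold change was 0.09, with an unadjusted p of 0.0035 and an adjusted p of 0.320 (limma). The paper reports Gata2 as upregulated by metformin, from RNA-seq and also from qRT-PCR and western blotting, which were not examined here. The direction was the same, but the gene did not pass the test used here. Of the 15, 0 passed the test in either direction, with a lowest adjusted p of 0.320 (limma), 14 had a positive and 1 a negative log2 fold change, and the median was 0.07 against 0.0041 for all tested genes. The groups did not overlap for Gata2 and Lyl1, and 3 of the 15 had an unadjusted p under 0.05. Over all tested genes, 17.0% did not overlap between groups, 1156 of 10661 had an unadjusted p under 0.05 and 5580 had a positive log2 fold change, so that the share without overlap was near that of all genes. The summed level of the 12 mast cell and basophil genes was 507 to 539 FPKM in the control libraries and 485 to 499 with metformin, and its part in these values was not tested. The gap lay in Cpa3, with means of 366 and 338 FPKM (limma adjusted p = 0.369), while Kit and Il1rl1 had log2 fold changes of 0.0034 and 0.016 and groups that overlapped.

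Of 23 genes on the list of platelet surface receptors, 10 reached 1 FPKM. F2r, the gene for the thrombin receptor PAR1, had 128 FPKM. The further thrombin receptor genes of the list, F2rl2 and F2rl3, had 4.63 and 3.64 FPKM. Cd63, Itgb1 and Ptgir, the prostacyclin receptor gene, had 69.2, 68.4 and 57.4 FPKM. Which genes of the list act in mouse platelets was not tested, so a high level is not a platelet trait. P2ry12, the ADP receptor gene that antiplatelet drugs target, and Treml1 were listed at 0 in all 6 libraries. A further 11 had a value above 0 in at least 1 library and a mean under 1 FPKM. Here 0 genes passed in either direction, with 3 higher and 7 lower, a median log2 fold change of -0.01, a lowest adjusted p of 0.369 (limma) and 2 genes at an unadjusted p under 0.05. Among all 10661 tested genes, 3 passed and 1156 had an unadjusted p under 0.05.

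The list of integrin activation and platelet signalling had the most genes at a measurable level, with 19 of 20 at 1 FPKM or more. It also holds general signalling genes such as Syk, Lyn, Csk, Lcp2 and Btk. Its levels therefore do not single out integrin alphaIIb-beta3. Rgs18, a regulator of G protein signals in platelets, Rap1b, the small GTPase ahead of the integrin, Lcp2 and Plek had 151, 138, 131 and 90.4 FPKM. Talin (Tln1) and kindlin-3 (Fermt3), which bind the tail of beta3, had 74.9 and 41.4 FPKM. Src alone stayed below 1 FPKM, at a mean of 0.17. Of the 19, 0 passed in either direction, with 14 higher and 5 lower, a median of 0.02 and a lowest adjusted p of 0.301 (limma), that of Rgs18. Its level was 157, 160 and 153 FPKM in the control libraries and 143, 147 and 144 FPKM with metformin, and the groups did not overlap, as for 5 higher genes of the list, against 17.0% of all tested genes. An unadjusted p under 0.05 was found for 4 of the 19, against 1156 of the 10661 genes tested.

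Of 28 genes for platelet granules, eicosanoids and cytoskeleton, 9 reached 1 FPKM and 6 were listed at 0. Tgfb1, Srgn, Myh9 and Flna were the highest, at 81.0, 76.3, 45.5 and 44.98 FPKM, and these are made by many blood cells. Tubb1, the beta1-tubulin of the platelet's marginal band, had 0.05 FPKM in 2 libraries and 0 in the others, and Thbs1, the granule protein thrombospondin, had at most 0.02 FPKM. No gene passed in either direction among the 9 tested, with 5 higher and 4 lower, a median of 0.02 and a lowest adjusted p of 0.453 (limma), and 1 had an unadjusted p under 0.05. Of the 10 integrin subunits tested, 4 were higher and 6 lower and 0 passed, with a median of -0.0080 and a lowest adjusted p of 0.348 (limma), that of Itgb7, the 1 gene at an unadjusted p under 0.05. Among all 10661 tested genes, 3 passed and 1156 had an unadjusted p under 0.05. In these lists the groups did not overlap for Tgfb1 and Itgb7, as for 17.0% of all tested genes.

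**Figure D5:**
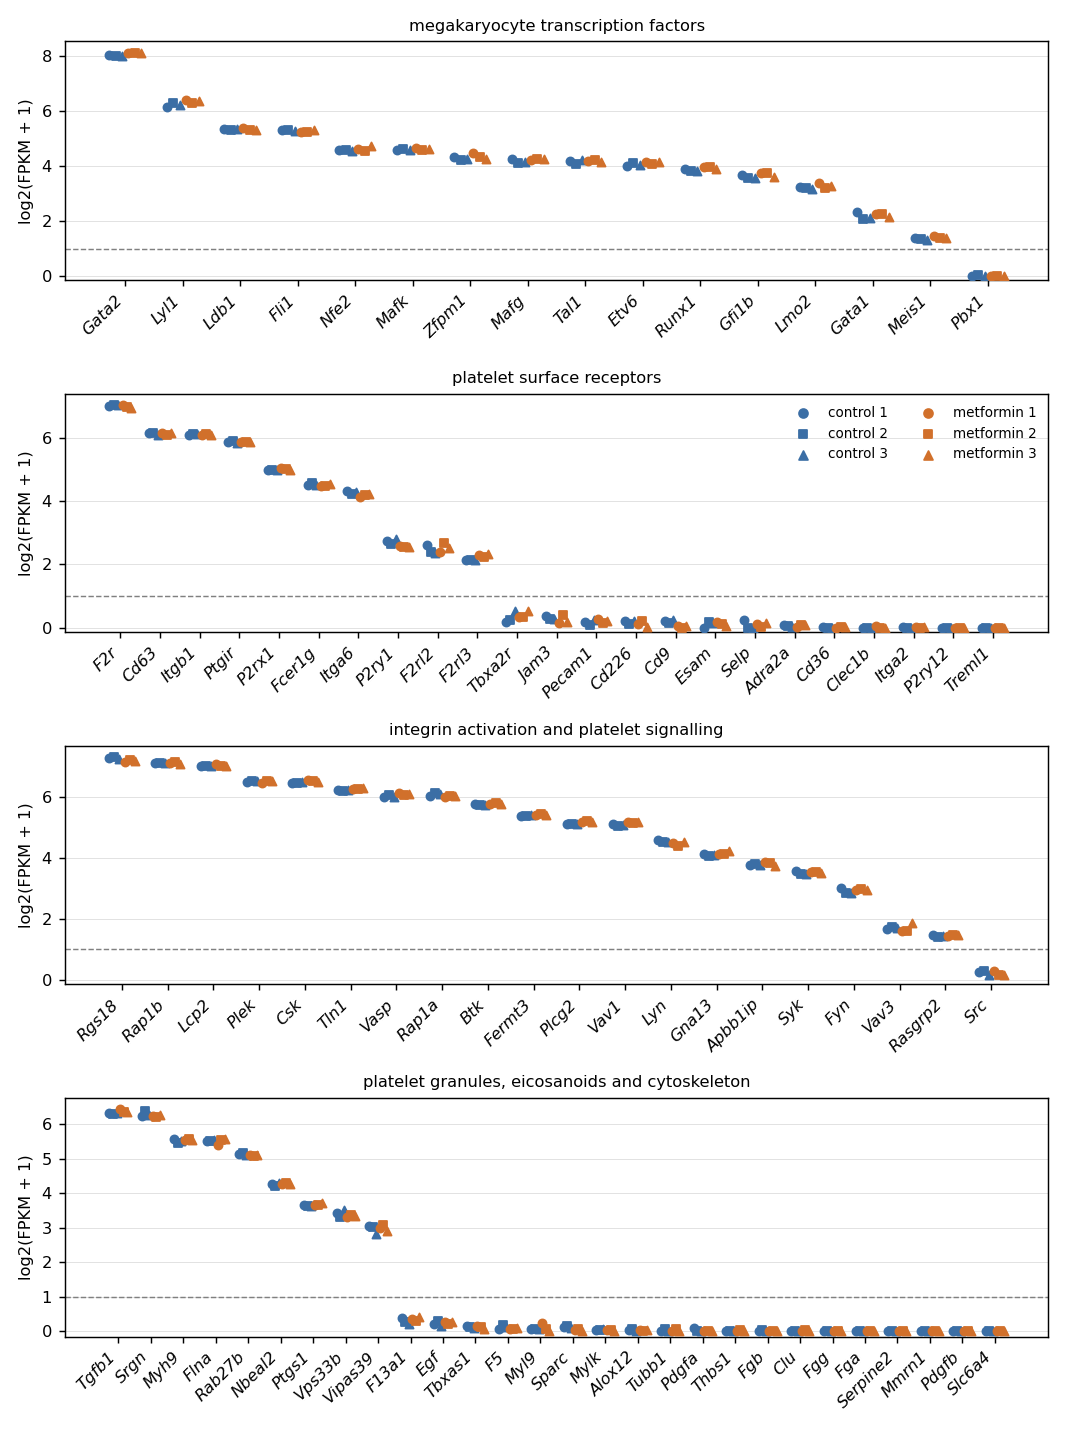
Level on the scale log2(FPKM + 1) of 4 gene lists for megakaryocytes and platelets, ordered by mean within each list. Symbols are libraries (blue for control, orange for metformin), and a dashed line marks 1 FPKM. Transcription factors and genes of integrin activation and platelet signalling lie almost all above the line, at 15 of 16 and 19 of 20. Of the surface receptors 10 of 23 do, and of the granule and cytoskeleton genes 9 of 28.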

How the data were processed

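RNA-seq of 3 control and 3 metformin libraries was analysed, with groups from the treatment label and replicate numbers from the titles. The table deposited by the authors holds FPKM of 55401 genes with Ensembl identifiers, 1 column per library, rounded to 2 decimals, which include their mapping, counting and scaling for gene length and depth. The submitters' processing notes name HISAT2, DESeq2 and mm9 without a role, but 99.7% of 17648 gene spans in the table overlapped those of RefSeq on GRCm38.p6 and 9.4% of 32589 overlapped those on NCBIM37 (mm9), so positions are given as GRCm38. The counter and its gene lengths are not given in the sources used here. The labels name a stranded library kit and the paper another kit, so the use of strand is unknown. Symbols were matched by Ensembl identifier for 32589 genes. Older symbols were matched through RefSeq synonyms, and Hbb-bs and Hbb-bt had no match.

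The members and gene lists were chosen with earlier results of these data known. Depth was estimated by fitting the step of 1 fragment to FPKM times length for genes with a single exon under 400 bp and the same length in the table and in GENCODE M1, where 366 to 409 values below 20 fragments per library lay within 0.1 of a whole number in 100% of cases. Fragments of a member are FPKM times depth times its M1 exon length, which may differ from the length that the authors used, and are estimates. For Gp1ba the M1 length exceeds the deposited span, so it does differ. For Pf4 the estimates were not near whole numbers, so its length probably differs too.

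Groups were compared on log2(FPKM + 1), a scale that understates the change of low genes, for genes that averaged 1 FPKM or more, by limma (version 3.58.1, R 4.3.3) with an eBayes trend. P-values were two-sided and adjusted by Benjamini-Hochberg over all tested genes, with a threshold of 0.05. FPKM are not counts, so no count test was run. The fit was tested on simulated data. Named were the 10 members, up to 4 of the highest genes of each list, genes that passed, integrins of at least 1 FPKM, genes overlapping a member and the 3 genes most and least like Itga2b. Other genes were named after their values were seen. A gene of the surface receptor list is not reported here and was left out of its counts. Tried as well were a filter at a mean of 10 FPKM, no filter at all, a pseudocount of 0.1, rescaling to the same sum (TPM), quantile normalization, no trend, the replicate number as a block and each library left out in turn. Figures were drawn with matplotlib 3.10.9 in Python 3.11.15.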

Additional observations from a re-analysis of the deposited data

How the results depend on the processing

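The number of members that passed the adjusted threshold was 0 under all 13 alternatives (limma). The number of genes that passed over the whole table, 3, was 7 without a filter on low values, with 4 higher and 3 lower among 22809 genes, and 2 to 4 under the others. The log2 fold change of Itga2b ranged from -0.040 to 0.019 with each library left out in turn and was positive only without control replicate 3, at 0.019. With a library left out, Itgb3 ranged from 0.01 to 0.05, Pf4 from -0.12 to -0.00045 and Ppbp from -0.45 to -0.013. Apart from Itga2b without control replicate 3, the sign of each tested member was kept in all alternatives, and the lowest adjusted p was 0.404 (limma), for Ppbp without metformin replicate 3. With the replicate number as a block, 2 genes passed over the whole table and 0 members. Libraries with the same number did not deviate together, with correlations across genes of -0.03 to 0.05, so no pairing by number was seen. A pairing with a small effect could be hidden by counting error, so these correlations cannot exclude it. Without the filter, Gp1ba, Gp5, Gp9 and Vwf were tested as well, with adjusted p from 0.843 to 0.927 (limma), and Ppbp could not be tested at a mean of 10 FPKM. Among the tested members Ppbp had the fewest fragments, about 18 to 45 per library, and the part of depth in its spread was not tested.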

Other observations

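Across the 6 libraries, the genes most like Itga2b on log2(FPKM + 1) were Gnrh1, Serp1 and Itm2c, with Pearson r of 0.979, 0.973 and 0.971 over 6 libraries, out of 10660 tested genes. The least like was an unnamed gene with r = -0.988, followed by Esrra at -0.978 and another unnamed gene at -0.977. With 6 libraries from 2 groups, these values are a description only. Among the members themselves, r with Itga2b was 0.68 for Pf4, 0.626 for Ppbp and 0.087 for its partner Itgb3. Control replicate 3 had the highest value of Itga2b and of Pf4.

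Among platelet receptor genes, F2rl3, which encodes the thrombin receptor PAR4, had 3.37, 3.38 and 3.41 FPKM in the control libraries and 3.93, 3.73 and 4.03 with metformin, a log2 fold change of 0.16 (adjusted p = 0.369 from limma). P2ry1, an ADP receptor gene, had 5.63, 5.24 and 6.02 FPKM in the control libraries and 5.03, 4.84 and 4.83 with metformin, a log2 fold change of -0.17 (adjusted p = 0.379 from limma). For these genes, named after their values were seen, the groups did not overlap, as for 17.0% of all tested genes.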
